A study of Arabidopsis thaliana with 24 samples.

Results

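Transcript levels in sorted root epidermal cells were compared between the try mutant and the myb23 mutant of Arabidopsis thaliana, over every gene on the array. The comparison took the 3 arrays titled try and the 3 titled myb23, 6 of the 24 arrays of the series, and the 21440 rows of the table that are not Affymetrix control rows. The try plants carried the allele try-82 and the myb23 plants carried myb23-1. Both also carried the WER::GFP transgene, a green fluorescent protein reporter driven by the WEREWOLF promoter, as did the other 6 mutant lines of the series (cpc, egl3, gl3, ttg2, wer and the double mutant cpc ttg2). Seedlings of both lines were 5 days old, and the titles number the arrays of each line as biological replicates 1 to 3. The reporter is on in the developing epidermis and also in the lateral root cap, so the sorted cells hold both. Wild type was not analysed here, and the labels name no strain of origin. An effect of the 2 mutations and any other difference between these 2 lines therefore cannot be told apart. In sorted cells, fewer cells of a type and less RNA per cell cannot be told apart either.

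Root epidermal cells of Arabidopsis become either hair cells or non-hair cells according to their position. The MYB proteins WEREWOLF (WER) and MYB23 act in the non-hair position, together with the bHLH proteins GL3 and EGL3 and the WD40 protein TTG1, and switch on GLABRA2 (GL2), which keeps hairs from forming. CAPRICE (CPC), TRIPTYCHON (TRY) and ETC1 are small MYB proteins that lack an activation domain, move between cells and compete with WER in the hair position. TRY thus belongs to the inhibitors of the complex and MYB23 to its activators, and MYB23 is itself a target of the complex.

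The values are log2 levels from robust multi-array averaging (RMA), in which 1 unit is a doubling. A gene is called different here when its adjusted p in limma, a linear model with moderated variances, was under 0.05 after Benjamini-Hochberg adjustment over all 21440 genes. The spread was estimated over the 24 arrays. Across genes, the 3 myb23 arrays correlated with each other at 0.99 to 0.993 and the 3 try arrays at 0.962 to 0.987. The median gene had an SD of 0.172 over the myb23 arrays and 0.287 over the try arrays, against 0.298 to 0.357 in the other lines.

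The mutated genes were examined first. TRY stood at 10.1, 11.19 and 10.83 in the try arrays and at 8.96, 9.35 and 8.70 in the myb23 arrays. Every try array was above every myb23 array. The difference was 1.71 on the log2 scale (SE 0.48, adjusted p = 0.101 in limma), which did not pass the threshold. With only the 6 arrays in the model it did, with an adjusted p of 0.0273. TRY averaged 7.09 in wer and 8.61 to 9.57 in the 5 further lines, all lower than the 10.7 of try. MYB23 stood at 8.17, 7.89 and 7.41 in try and at 7.38, 7.25 and 7.57 in myb23. The groups overlapped, and the difference of 0.42 (SE 0.38, adjusted p = 1 after rounding) did not pass the test. The myb23 mean of 7.40 lay between the 6.77 of wer and the 7.73 of cpc, the nearest lines. Neither gene thus stood out as low in the line named for it. The labels do not say whether either allele lowers its transcript, so these levels do not check the labels, and try and myb23 below mean the arrays labelled so.

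Of the 21440 genes, 306 were called (1.43%). In try, 99 were higher (0.462%) and 207 were lower (0.965%). All 306 had try and myb23 arrays that did not overlap, as did 4205 of all genes (19.6%). The called differences were large: 290 were at least 1 on the log2 scale, 142 at least 2 and 67 at least 3. Over all genes the median difference was 0.03, and the extremes were -6.18 and 5.58. Identical rows in the table reduce the 306 called rows to 303 distinct measurements. Leaving out 1 array at a time left between 161 and 260 genes called. With the replicate number as a block the count was 337 (1.57%), of which 290 were among the 306.

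**Figure D1:**
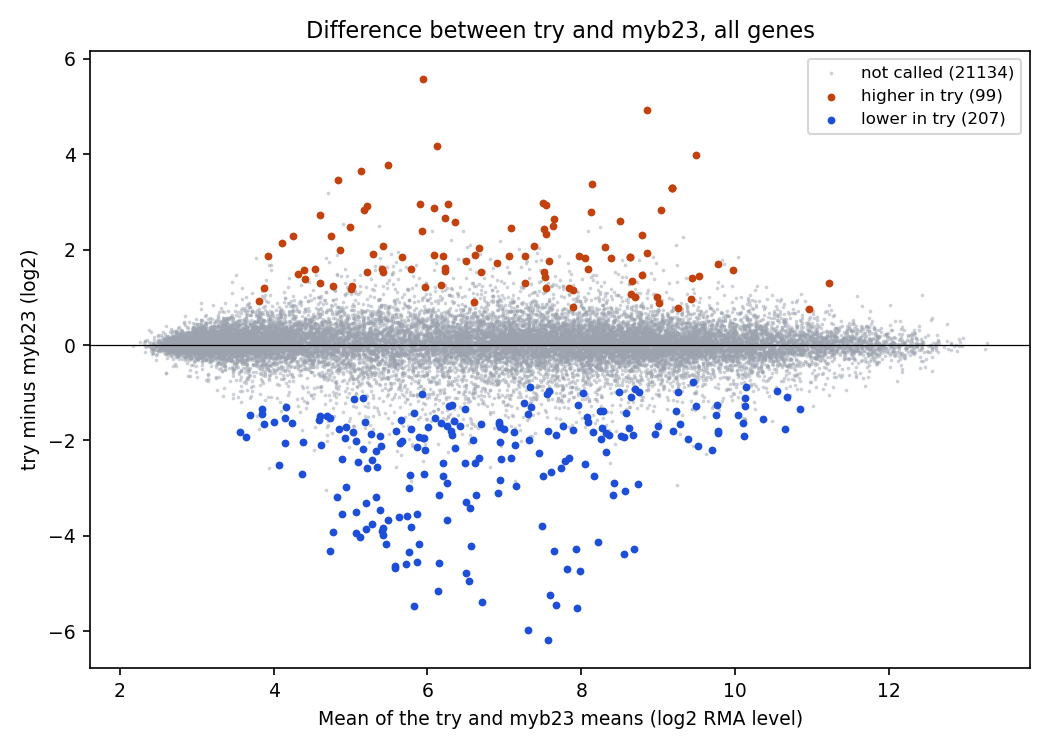
Difference between try and myb23 (log2, vertical axis) against the average of the 2 line means (log2 RMA level, horizontal axis), 1 point per gene. The 207 called lower genes reach -6.18 and the 99 called higher genes reach 5.58, and both lie across the range of levels.

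The gene with the largest rise was AT5G15360, which the RefSeq table lists as protein coding without a symbol, as it does the other genes given here by locus code unless said. Its level was 8.41, 9.06 and 8.75 in the try arrays and 2.83, 3.37 and 3.28 in the myb23 arrays. The fitted difference was 5.58 (SE 0.32, adjusted p = 3.72e-09), 47.8-fold. In the other lines it averaged 5.27 in egl3 and 3.3 to 3.72 in the remaining 5, so the high level was seen in try. AT5G19100 stood at 11.05, 11.36 and 11.56 in try and at 6.19, 6.71 and 6.29 in myb23. It was 4.92 higher (SE 0.34, adjusted p = 3.77e-08), and its means in the other lines lay between 6.27 and 7.13. AT5G18340 showed the same profile at lower levels, with 7.38, 6.57 and 6.905 in try and 3.23, 3.37 and 3.34 in myb23. Its difference was 3.64 (SE 0.25, adjusted p = 3.77e-08), and every other line averaged 3.33 to 3.78.

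The other genes of the upper end had differing profiles across the lines. AT3G29410 averaged 8.21 in try and 4.04 in myb23, a difference of 4.17 (SE 0.79, adjusted p = 0.00643), while cpc ttg2 reached 9.68 and egl3 8.37. AT1G70080 averaged 11.5 in try and 7.5 in myb23, a difference of 3.99 (SE 0.35, adjusted p = 8.39e-07), with the other lines spread from 6.82 in wer to 10.3 in egl3. AT2G13750, annotated as a pseudogene, averaged 6.56 in try, 3.11 in myb23 and 6.97 in egl3. AT1G10110 was 3.78 higher (adjusted p = 0.00254), and its myb23 mean of 3.60 lay beside the 3.46 of cpc and the 3.61 of wer. The called rows AT2G07671, ATMG00040 and ATMG01080, the last 2 of them mitochondrial genes, hold identical values and are 1 measurement: 10.5, 11.1 and 10.9 in try against 7.20, 7.42 and 7.98 in myb23, a difference of 3.29 (SE 0.41, adjusted p = 7.91e-05).

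GSTU3, a glutathione transferase of the tau class that joins glutathione to foreign and reactive compounds, had the largest rise among genes with a symbol. It stood at 9.55, 9.38 and 10.54 in try and 5.55, 6.30 and 7.51 in myb23, and the groups did not overlap. The difference was 3.37 (SE 0.62, adjusted p = 0.00488), 10.3-fold. It was the 1 called gene of 27 measured GSTU genes (3.7%, against 1.43% of all genes), a group looked up after the call was seen. The median difference of the group was 0.16. GSTU11 came next with a difference of 2.27 (SE 0.63, adjusted p = 0.0932), and GSTU1, near GSTU3 on chromosome 2, differed by 0.90 (adjusted p = 0.166).

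**Figure D2:**
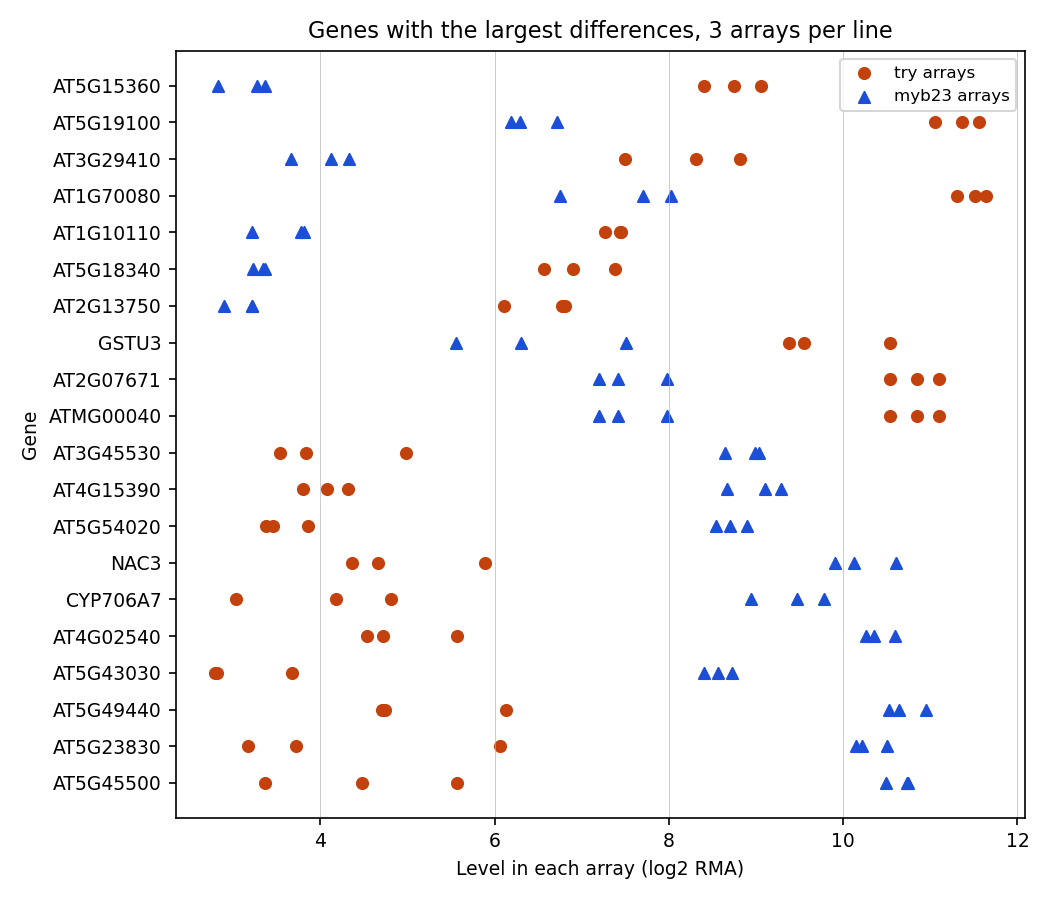
Level in each array (log2 RMA, horizontal axis) of the 10 called genes with the largest difference in each direction, circles for the 3 try arrays and triangles for the 3 myb23 arrays. The groups are apart for every gene, by 3.29 to 6.18 between the means. AT2G07671 and ATMG00040 hold the same values, as does ATMG01080, which is not drawn.

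The lower end went further. AT5G45500 stood at 4.48, 3.37 and 5.57 in try and at 10.74, 10.49 and 10.73 in myb23, and the difference was -6.18 (SE 1.14, adjusted p = 0.00504). Its mean was also low in gl3, at 5.43, and was 10.2 to 11.6 in the other 5 lines. The single gl3 arrays are not given here, so such a mean can hide unlike arrays. Over the 306 called genes the median SD was 0.529 in gl3 and 0.217 to 0.399 in the other lines. AT5G23830 stood at 3.73, 3.17 and 6.06 in try and at 10.50, 10.22 and 10.15 in myb23, a difference of -5.97 (SE 0.44, adjusted p = 7.34e-08). Every other line averaged 9.94 to 10.6, so try was the single line with a low level.

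NAC3, a NAC domain transcription factor also named ORS1, stood at 4.66, 4.37 and 5.89 in try and at 9.91, 10.12 and 10.61 in myb23. The difference was -5.24 (SE 0.44, adjusted p = 3.36e-07), 37.8-fold, and the other lines averaged 9.21 to 10.6. ORS1 is known as a promoter of leaf senescence. CYP706A7, a cytochrome P450, stood at 4.18, 3.03 and 4.81 in try and at 9.47, 8.95 and 9.79 in myb23, a difference of -5.39 (SE 0.40, adjusted p = 8.26e-08). Here cpc and egl3 were as low as try, at 3.14 and 3.23, while gl3, ttg2, wer and cpc ttg2 lay between 8.97 and 9.33. The low level in cpc was thus absent from cpc ttg2, a line that carries the same cpc allele by its label. CYP706A4, from the same region of chromosome 4, differed the other way, by 1.19 (SE 0.28, adjusted p = 0.0316).

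Several of the genes with the strongest falls also had a low mean in gl3 or cpc. AT5G49440, lower by -5.52 (SE 0.90, adjusted p = 0.00173), averaged 6.24 in gl3 and 10.1 to 10.6 in the others. AT5G54020, lower by -5.15 (SE 0.90, adjusted p = 0.00302), averaged 4.93 in gl3 and 7.71 to 9.65 in the others. AT5G43030, lower by -5.47 (SE 0.95, adjusted p = 0.00299), averaged 2.36 in cpc and 4.57 in gl3. AT4G02540, lower by -5.46 (SE 0.69, adjusted p = 9.15e-05), was about as low in cpc (4.40), egl3 (4.59) and cpc ttg2 (4.30) as in try (4.94). AT4G15390, lower by -4.96 (SE 0.40, adjusted p = 2.56e-07), averaged 4.07 in cpc. AT3G45530 differed by -4.77 (SE 0.39, adjusted p = 3.31e-07) and averaged 7.54 to 9.28 in the 6 other lines. No single pattern across the lines thus held for the 10 largest falls.

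**Figure D3:**
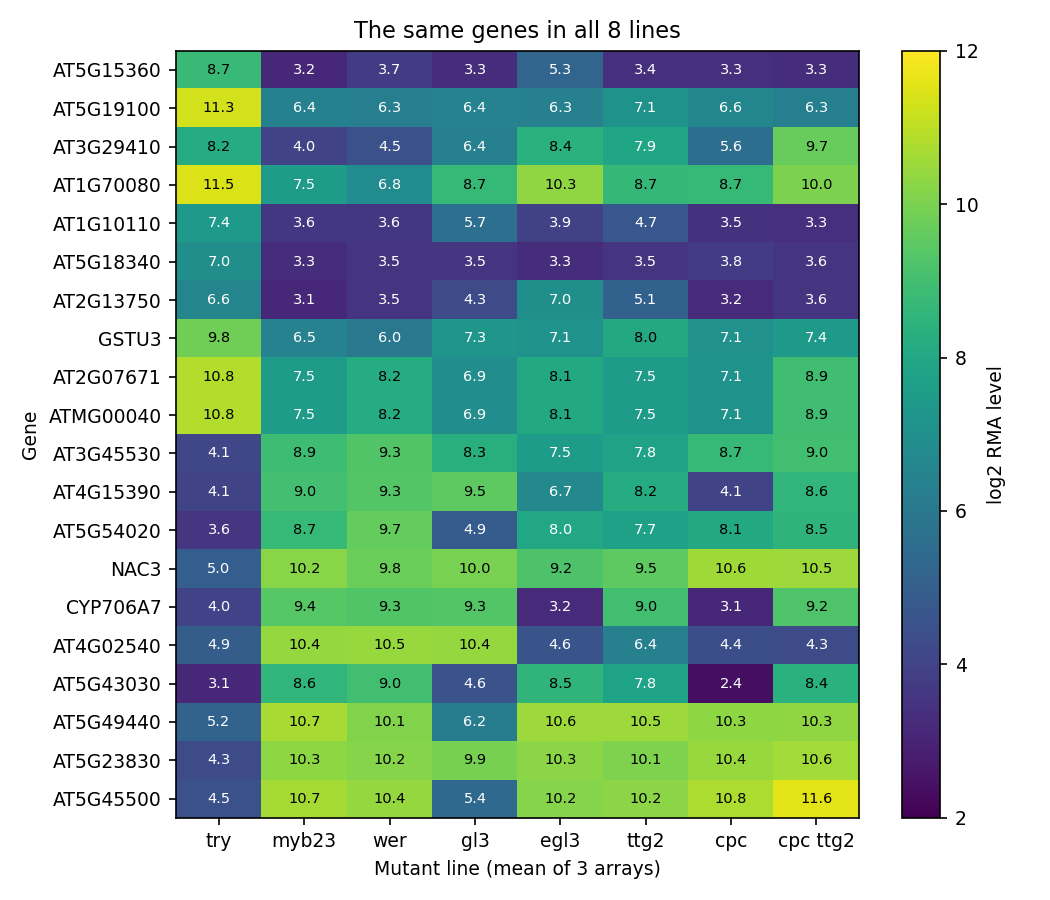
Mean log2 RMA level (colour and printed value, 3 arrays per line) of the same 20 genes in all 8 lines. The means of AT5G19100 and AT5G18340 are high in try alone, and those of AT5G23830 and NAC3 are low in try alone. AT5G45500, AT5G49440 and AT5G54020 have low means in try and gl3, and the spread within a line is not drawn.

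The called genes that carry a symbol in the RefSeq table were then taken by size, the 15 largest in each direction, a choice made after the values were seen. Among the lower genes were 2 of sterol and triterpene synthesis. SQP2, a squalene epoxidase-like protein, stood at 6.09, 4.75 and 6.01 in try and at 10.7, 9.90 and 10.48 in myb23, and differed by -4.74 (SE 0.42, adjusted p = 8.18e-07). LAS1, the lanosterol synthase, stood at 4.97, 4.98 and 4.51 in try and at 8.29, 7.82 and 7.0 in myb23, and differed by -2.89 (SE 0.39, adjusted p = 0.000252). The neighbouring squalene epoxidase-like gene SQP1 did not follow SQP2 (-0.01), and the squalene epoxidase gene XF1 differed by -0.08 (adjusted p of both 1 after rounding).

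The marneral genes, looked up after these calls were seen, are a gene cluster that makes root triterpenes. Its oxidases CYP71A16 and CYP705A12 fell. CYP71A16 stood at 9.29, 9.14 and 9.47 in try and at 11.13, 10.59 and 10.59 in myb23, a difference of -1.48 (SE 0.23, adjusted p = 0.00112), and CYP705A12 differed by -1.70 (SE 0.33, adjusted p = 0.00835). The synthase of the cluster, MRN1, differed by -1.35 (SE 0.51, adjusted p = 0.326), short of the test. The thalianol cluster, another root triterpene cluster, had 0 of 3 genes called: THAS1 differed by -0.96 (adjusted p = 0.0992), CYP705A5 by -0.78 (adjusted p = 0.0556, and 0.0415 with the replicate block) and CYP708A2 by -0.45 (adjusted p = 0.841).

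Transporters and channels were called in both directions. GLR2.1, a glutamate receptor-like channel, stood at 3.495, 2.67 and 3.61 in try and at 7.93, 7.495 and 8.23 in myb23, a difference of -4.63 (SE 0.86, adjusted p = 0.00549). CAX1, which exchanges calcium for protons at the vacuole, differed by -3.29 (SE 0.56, adjusted p = 0.00252). In the other direction, CHX20, a cation/proton exchanger, was higher by 2.30 (SE 0.45, adjusted p = 0.00815), BOR4, a borate exporter, by 1.90 (SE 0.33, adjusted p = 0.00276), and G3Pp1, a glycerol-3-phosphate permease, by 2.94 (SE 0.71, adjusted p = 0.0401). No direction was shared by these transporters.

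Further symbol-bearing genes belonged to metabolism, defence and protein handling. Lower in try were ST4B, a sulfotransferase, by -3.93 (SE 0.62), DAR4, an immune receptor with a LIM domain, by -3.92 (SE 0.36), BXL1, a cell wall beta-xylosidase, by -3.06 (SE 0.48), and MES1, a methyl esterase, by -2.96 (SE 0.43). Their adjusted p-values were 0.00132, 1.28e-06, 0.00125 and 0.000495. Higher in try were CYP71B2, a cytochrome P450, by 2.96 (SE 0.55), ACC2, the plastid acetyl-CoA carboxylase, by 2.44 (SE 0.51), SQN, a cyclophilin 40 needed for microRNA function, by 2.38 (SE 0.54), and CRF6, a cytokinin response factor, by 1.88 (SE 0.39). Their adjusted p-values were 0.00569, 0.0147, 0.0275 and 0.0133.

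RMA gives a level to every gene, with no detection call, and low levels are near the bottom of the scale (the lowest value in the 6 arrays was 2.05). In 54 of the 207 lower genes the try mean was under 4, and in 20 of the 99 higher genes the myb23 mean was. For these the fold is set by a level near the floor of the scale.

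The epidermal patterning genes, the pathway of the mutated genes, had 0 of 16 measured members called. Over all genes 1.43% were called, so a list this short can hold no call without standing apart. The same share is the one to set beside the counts of the lists below. Their median difference rounded to 0.03, as it did over all genes, and 8 of the 16 were above 0. GL3 and CPL3, another inhibitor, were not on the table. Among the activators, WER stood at 11.09, 11.92 and 11.96 in try and 11.32, 11.23 and 11.41 in myb23, and GL1, the shoot counterpart of WER, was near the bottom of the scale in both lines, at 3.40 to 3.69. EGL3 differed by -0.36, the related bHLH gene MYC1 by -0.15 and TTG1 by -0.18. The TTG1 arrays did not overlap (8.24 to 8.48 in try, 8.54 to 8.63 in myb23), but the difference was small beside its SE of 0.22.

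Among the inhibitors, CPC was nearly the same in both lines, with 10.89, 11.02 and 10.85 in try and 11, 10.86 and 10.91 in myb23. ETC1 stood at 8.53, 7.93 and 7.68 in try and at 7.28, 7.17 and 7.51 in myb23. These groups did not overlap, and the difference of 0.73 (SE 0.44, adjusted p = 0.811) did not pass the test. ETC2 differed by -0.23. The targets of the complex also did not pass it: GL2 stood at 8.78, 9.42 and 8.52 in try and at 8.74, 8.38 and 8.47 in myb23, a difference of 0.38 (SE 0.47), and TTG2, a WRKY factor, differed by 0.40 (SE 0.31). The genes of positional signalling and of the output differed by 0.46 (QKY), -0.13 (SCM, the receptor-like kinase SCRAMBLED), -0.20 (JKD) and 0.07 (PLDZETA1), with adjusted p-values that rounded to 1.

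Genes of the hair itself had negative median differences, and none passed the test over the 24 arrays. Root hair growth genes had 0 of 22 called, a median of -0.41 and 18 below 0. Root hair cell wall genes had 0 of 19 called, a median of -0.62 and 18 below 0. In 6 and 7 of them, respectively, every try array was below every myb23 array, which held for 8.98% of all genes. PIP5K3, a kinase that makes a phosphoinositide at the hair tip, stood at 6.87, 6.01 and 5.995 in try and at 7.70, 7.92 and 7.76 in myb23, a difference of -1.50 (SE 0.38, adjusted p = 0.0532). RHD6, the bHLH factor that starts hair formation, stood at 9.18, 8.98 and 8.74 in try and at 9.93, 9.95 and 10.03 in myb23, a difference of -1.01 (SE 0.34, adjusted p = 0.229). RHS8, a root hair specific gene, differed by -2.07 (SE 0.65, adjusted p = 0.165). With only the 6 arrays in the model 2 members of each list were called lower: PIP5K3 (adjusted p = 0.0227) and RHD6 (0.0216), and RHS8 (0.0328) and PRP1 (0.0451), a proline-rich wall protein. That model called 3.14% of all genes.

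The hair wall level was uneven among the try arrays. The mean over its 19 genes was 10.1, 8.95 and 9.78 in the try arrays and 10.3, 10.2 and 10.4 in the myb23 arrays, so try replicate 2 was the lowest. COBL9, a cell wall anchored protein of the hair tip, stood at 9.99, 7.93 and 8.48 in try and at 10.61, 9.78 and 10.07 in myb23, and the groups overlapped. RSL4, the factor that sets hair growth, differed by -0.68 (adjusted p = 0.908), RHD2, the hair tip NADPH oxidase, by -0.56 (adjusted p = 0.616) and EXPA7, a hair expansin, by -0.91 (adjusted p = 0.857).

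Of 11 measured genes of the lateral root cap, the other cells of the sort, 1 was called, and it was higher in try. The median difference of the 11 was 0.64, 10 were above 0, and BRN2, a NAC factor of the root cap, was at -0.09. In 4, every try array was above every myb23 array, which held for 10.6% of all genes. The mean over the 11 genes was 10.3, 9.88 and 10.4 in the try arrays and 9.71, 9.77 and 9.14 in the myb23 arrays, with no overlap. The called gene, AT2G14095, stood at 10.53, 9.90 and 10.35 in try and at 8.79, 9.01 and 8.64 in myb23, a difference of 1.45 (SE 0.26, adjusted p = 0.00403). SMB, the NAC factor that drives maturation of the root cap, differed by 0.59 (adjusted p = 0.82), and BFN1, a nuclease of dying root cap cells, by 0.96 (adjusted p = 0.515). No defining marker was near the bottom of the scale in either line, and the part of these cells in the other differences was not tested.

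2 further array measures separated the lines. The control probe set for 25S ribosomal RNA stood at 9.45, 9.26 and 8.76 in try and at 10.24, 10.23 and 9.77 in myb23. The mean of the 77 mitochondrial genes stood at 6.31, 6.46 and 6.195 in try and at 5.83, 5.90 and 5.93 in myb23. Both measures can vary more than this within a line: the cpc arrays ranged from 8.04 to 9.72 and from 4.95 to 7.13. The differences between the 3' and 5' probe sets of actin and of GAPDH, a sign of RNA integrity, overlapped between the lines. The part of these measures in the gene differences was not tested.

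Markers of tissues that the sort should leave out had no called member. Ground tissue genes had 0 of 13 called and a median of -0.29, and stele genes 0 of 14 called and a median of -0.08. Levels within these lists were mixed. SHR and APL of the stele stood below 4.5 in all 6 arrays, while LHW, a factor of vascular development, stood at 7.40, 8.59 and 8.70 in try and at 7.90, 8.38 and 7.95 in myb23. Of the ground tissue genes, ESB1 and CASP1, both of the Casparian strip, ranged from 6.60 to 7.68 and from 5.53 to 6.60. SUC2, the phloem sucrose carrier, stood at 5.94, 6.98 and 7.15 in try and at 4.60, 5.06 and 5.37 in myb23, a difference of 1.68 (SE 0.47, adjusted p = 0.101). With only the 6 arrays in the model SUC2 was called, with an adjusted p of 0.0492, and no other gene of these lists was. WOL, a cytokinin receptor, stood at 9.95, 9.23 and 9.22 in try and at 10.35, 10.48 and 10.35 in myb23 and differed by -0.93 (SE 0.24, adjusted p = 0.0612).

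**Figure D4:**
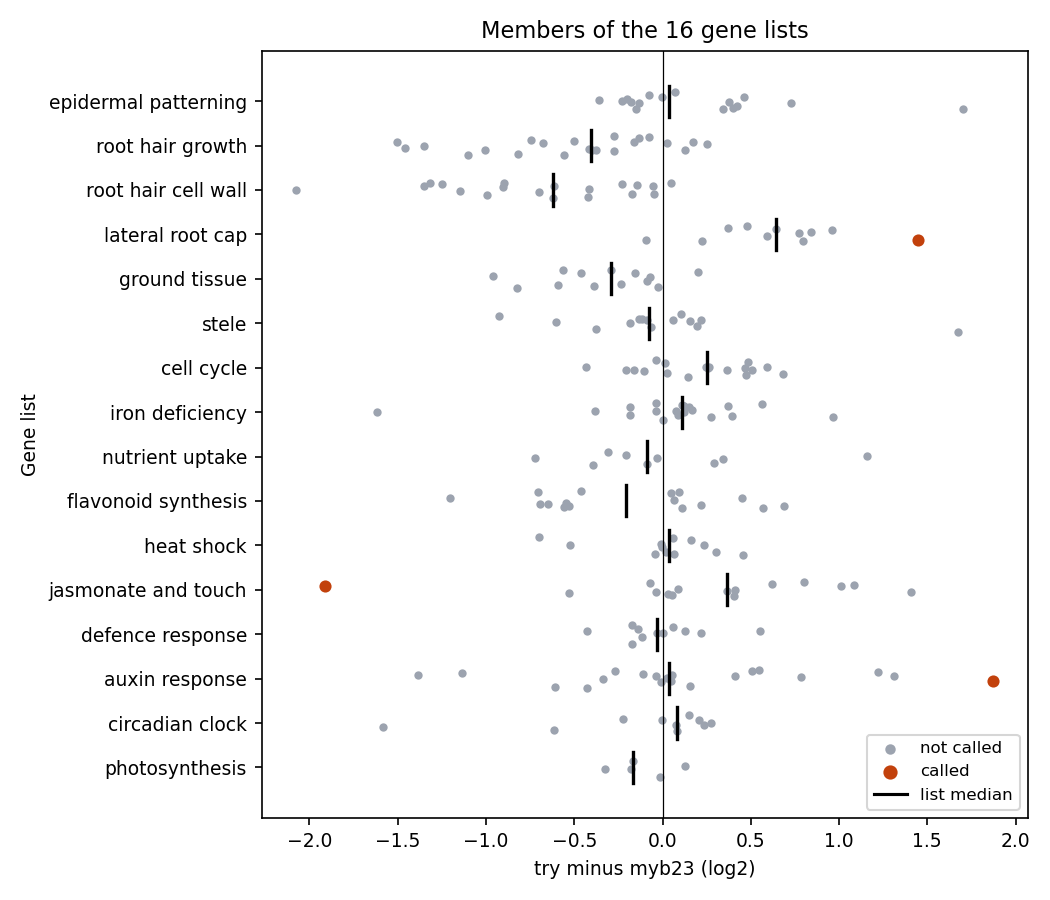
Difference between try and myb23 (log2, horizontal axis) of each measured member of the 16 gene lists, 1 point per gene, with the list median as a bar. The 3 large points are the called members AT2G14095, OPR3 and LBD16, and the largest list medians are -0.62 (root hair cell wall) and 0.64 (lateral root cap).

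In the auxin response list 1 of 20 members was called. LBD16, a factor that starts lateral roots, stood at 7.25, 7.05 and 7.11 in try and at 4.87, 5.59 and 5.33 in myb23, a difference of 1.87 (SE 0.41, adjusted p = 0.0201). When 1 array at a time was left out, the call was lost in every fit except the one without myb23 replicate 2. Its adjusted p then rose above 0.05, up to 0.138. The list's median was 0.04. IAA5 differed by -1.38 (SE 0.35, adjusted p = 0.0524, and 0.0457 with the replicate block) and IAA14 by -1.14 (adjusted p = 0.127), both repressors of auxin response, while GH3.1, which conjugates auxin, differed by 1.22 (adjusted p = 0.279). With only the 6 arrays in the model IAA5 (adjusted p = 0.0144) and IAA14 (0.0415) were called lower and LBD16 (0.00389) higher. Members on both sides of 0 thus stood apart between the lines.

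In the jasmonate and touch list 1 of 15 members was called. OPR3, the reductase that makes the jasmonate precursor, stood at 8.44, 9.08 and 9.96 in try and at 11.21, 11.08 and 10.92 in myb23, a difference of -1.91 (SE 0.45, adjusted p = 0.0356). The call was lost in every fit that left out 1 array except the one without try replicate 3. In the fits that lost it the adjusted p rose above 0.05, up to 0.159. The list's median was 0.36. None of the measured JAZ genes, repressors that jasmonate induces, passed the test, and they lay on both sides of 0. JAZ7 differed by 1.41 (adjusted p = 0.235), JAZ8 by 1.09 (adjusted p = 0.268) and JAZ1 by -0.04. JAZ6 differed by -0.53 (adjusted p = 1 after rounding), with every try array below every myb23 array.

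The 8 remaining lists had no called member over the 24 arrays, and with the replicate block 1, PYE, was called. With only the 6 arrays in the model IRT2 (adjusted p = 0.0215) and PRR5 (0.0186) were called, both lower in try. That model called 3.14% of all genes. The cell cycle genes (18 measured) had a median of 0.25, and the largest difference was 0.68 for CYCB1;4, a mitotic cyclin. The iron deficiency genes (19) had a median of 0.11, with -1.61 for IRT2, an iron transporter, and 0.97 for PYE, a bHLH regulator of the iron response (adjusted p = 0.165 and 0.101). With the replicate block the adjusted p of PYE was 0.0335. The flavonoid synthesis genes (16) had a median of -0.21, with -1.20 for TT4, the chalcone synthase. The nutrient uptake genes (9) had a median of -0.09, with 1.16 for HAK5, a potassium transporter.

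The circadian clock genes (10) had a median of 0.08. PRR5 stood apart among them, at 7.75, 6.83 and 7.65 in try and 9.02, 8.94 and 9.003 in myb23, a difference of -1.58 (SE 0.45, adjusted p = 0.105). The heat shock genes (12) had a median of 0.04, with -0.70 for HSP90.1. The defence genes (11) had a median of -0.03, with 0.555 for CYP81F2, which modifies indole glucosinolates. The photosynthesis genes (5) had a median of -0.17, with -0.33 for LHCB3.

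The try and myb23 levels were also set beside the other lines. Against the mean of the single mutants cpc, egl3, gl3, ttg2 and wer, 449 genes were called for try (2.09%; 163 higher and 286 lower) and 14 for myb23 (0.0653%; 13 higher and 1 lower). Both comparisons share those reference arrays, and each shares its own line's arrays with the try and myb23 comparison. At an unadjusted p under 0.05 in limma the myb23 count was 728 and the count for try against myb23 was 1857. Without any difference a share of about 0.05 of the genes would pass, and the 728 are fewer than that. Of the 306 called genes, 236 were called for try against the 5 lines, 9 for myb23, 8 of them for both, and 69 for neither. CYP706A7 and AT4G02540 were among the 8 called for both, with adjusted p-values of 0.000781 and 0.0181 for myb23.

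For each of the 306 genes the mean of every other line was set beside try and myb23. The wer mean was nearer to try for 3 of the 306 (0.98%), against 35.8% of all genes. The cpc, egl3, gl3, ttg2 and cpc ttg2 means were nearer to try for 71 to 90 of the 306, against 46.6% to 51.3% of all genes. In 106 genes all 5 single mutant lines were nearer to myb23, and in 1 gene all 5 were nearer to try. Over all 21440 genes these counts were 2674 and 1690. By the same fit, no gene was called between gl3 and myb23. At an unadjusted p under 0.05 that pair had 869, also fewer than a share of 0.05 of all genes. The calls between myb23 and the others were 4 with wer, 11 with ttg2, 136 with egl3, 141 with cpc and 5733 with cpc ttg2. Of the pairs with try, gl3 gave 175, ttg2 201, egl3 283, cpc 504, wer 1093 and cpc ttg2 6602. The 306 of try against myb23 ranked 12th of the 28 pairs of lines. All pairs with try share the try arrays, and all pairs with myb23 the myb23 arrays.

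The called genes were unevenly spread along the chromosomes. The chromosome and order come from the locus codes and were set beside the RefSeq annotation of TAIR10.1; the assembly behind the array is not given in the sources used here, so no coordinates are printed. Chromosome 5 had 95 of its 4904 measured genes called (1.94%) and chromosome 2 had 65 of 3493 (1.86%). Chromosome 1 had 56 of 5530 (1.01%), chromosome 3 had 53 of 4262 (1.24%) and chromosome 4 had 35 of 3171 (1.1%).

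On chromosome 3 no gene was called from AT3G01010 to AT3G22240, the first 1856 measured genes and 43.5% of the chromosome. On chromosome 4 no gene was called over 1104 genes in a row, from AT4G21690 to AT4G34580, 34.8% of the chromosome. The longest uncalled stretches of chromosomes 1, 2 and 5 held 695, 280 and 721 genes. Over these 5 stretches, chosen for having no call, the median size of the difference was 0.169, and it was 0.191 elsewhere. For try against the 5 lines, which shares the try arrays, 0.58% of the genes in the stretches and 2.51% of those elsewhere were called. Pairs without try and myb23 gave differing profiles. The pair cpc and gl3 differed in 0.107% of genes inside and 0.617% outside, and egl3 and gl3 in 0.58% inside and 0.682% outside. Each pair with cpc ttg2 had the higher share inside, such as 11.4% inside and 9.84% outside with ttg2.

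**Figure D5:**
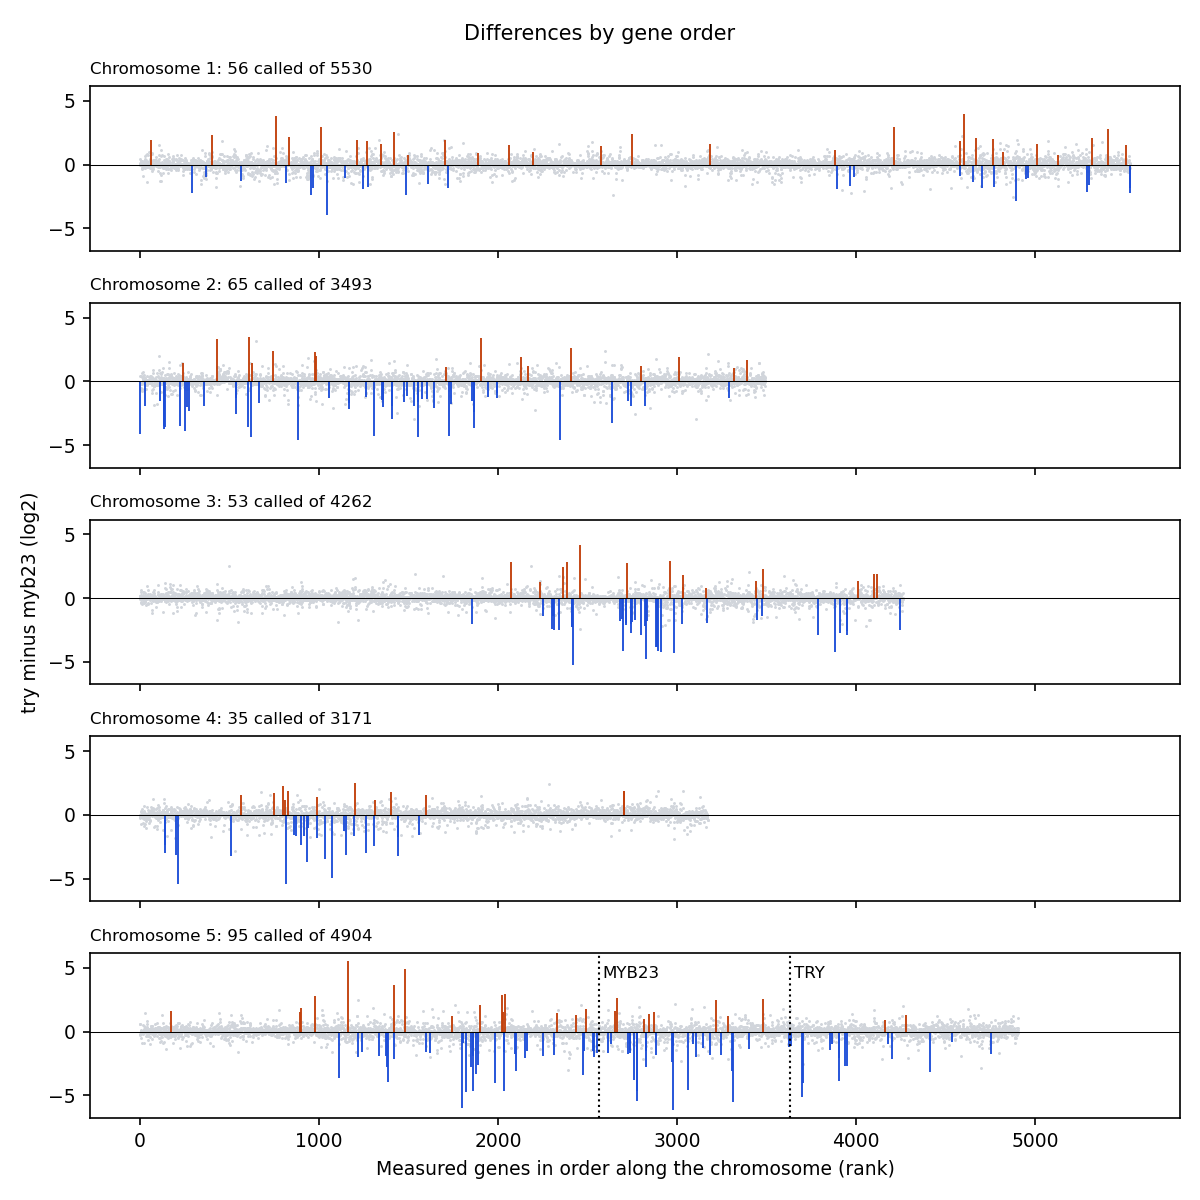
Difference between try and myb23 (log2, vertical axis) of the measured genes in order along each chromosome (rank, horizontal axis), with called genes as lines and other genes as grey points. Calls are absent from the first 1856 genes of chromosome 3 and from 1104 genes in a row of chromosome 4, and dotted lines mark MYB23 and TRY on chromosome 5.

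Called genes also lay beside each other. Of the 304 called nuclear genes, 46 (15.1%) had a called gene as next measured neighbour, against 2.63% of the genes that were not called. Of the lower genes, 34 had a lower neighbour, and of the higher genes 4 had a higher one. Of those 4, AT4G34588 and GBF6 hold identical values and are 1 measurement. Of 211 full windows of 100 genes, 82 had no call and 11 had at least 5, and those 11 held 68 called genes (22.4%). The 2 richest windows had 8 calls each, 7 of them lower in both. They run from AT3G43760 to AT3G45210, which includes LAS1, and from AT5G23860 to AT5G25120, which includes SQP2 and PGL4, a 6-phosphogluconolactonase.

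Some neighbours differed by like amounts. AT5G43040, next to AT5G43030, stood at 2.99, 2.87 and 3.88 in try and at 8.12, 7.58 and 8.03 in myb23, a difference of -4.67 (SE 0.87, adjusted p = 0.0057). AT2G02620 and AT2G02630 differed by -3.53 (SE 0.50) and -3.75 (SE 0.37). Other pairs were less alike. MES3, next to MES1, differed by -1.93 (SE 0.39, adjusted p = 0.012), AT5G45510, next to AT5G45500, by -1.11, and AT5G27110, next to GLR2.1, by -1.61 (adjusted p = 0.0435, and 0.0575 with the replicate block). SCPL11 and SCPL13, genes of serine carboxypeptidase-like proteins, differed by -1.47 (SE 0.21) and -2.02 (SE 0.36). Related neighbours can share probe sequence, and the probe sequences were not used here, so such pairs may be fewer independent measurements.

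The mutated genes both lie on chromosome 5. Within 50 measured genes on each side of TRY, 2 of 100 were called, CNGC1 (-1.21, SE 0.30, adjusted p = 0.0445) and AGP22 (-1.10, SE 0.25, adjusted p = 0.0252), a cyclic nucleotide-gated channel and an arabinogalactan protein. Around MYB23, 3 of 100 were called, TRX2, a thioredoxin (-1.55, SE 0.32), UMAMIT42, an amino acid transporter family member (-1.70, SE 0.39), and AT5G39990 (-1.98, SE 0.40). All 5 were lower in try. These shares of the 100 genes stand beside the 1.94% of chromosome 5 and the 1.43% of all genes.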

How the data were processed

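Per the submitters' processing notes the authors deposited log2 values from robust multi-array averaging (RMA). The labels name neither the array type nor the probe set definition. The 64 control rows were left out of tests. One mean per line was fitted over 24 arrays with limma 3.58.1 (R 4.3.3, lmFit and eBayes), with Benjamini-Hochberg adjustment over 21440 genes and a threshold of 0.05. The number of arrays limits the precision. The fit was tested on simulated data.

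The deviations of same-numbered try and myb23 arrays correlated at 0.174, 0.294 and 0.135. Differently numbered arrays ran from -0.408 to 0.269, the highest try 3 with myb23 2, so these correlations do not settle whether the numbers mark pairs. The labels do not say that a number marks a shared batch. The replicate number was therefore used as a block only in an alternative.

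Symbols came from the RefSeq table, which matched 21222 rows. Named genes were the 10 largest called in each direction without overlap, all patterning genes, up to 3 called members per direction of the other lists, and otherwise the member with the largest difference. Further genes were named after their values were seen. The comparison and the 16 lists were chosen with earlier results of these data known. Alternatives changed the block, the arrays fitted, the variance trend, array weights, the scaling and a minimum level of 5.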

Additional observations from a re-analysis of the deposited data

How the results depend on the processing

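Of the 23 genes called and named by rule, 21 held in all 15 alternatives, which include the array weights. Most of the 23 were picked for the size of their difference, and AT2G07671 and ATMG00040 are 1 measurement. Their record therefore does not stand for the 306. Of the 306, between 159 and 205 stayed called when 1 array was left out. With the replicate number as a block, 337 genes were called (104 higher, 233 lower), and none of the 23 was lost. Among the other genes named, PYE, IAA5 and CYP705A5 were gained and AT5G27110 was lost. Using only the 6 try and myb23 arrays gave 674 calls (264 higher, 410 lower), and 863 (325 and 538) with the replicate block added. These 6-array models use the spread of try and myb23 alone, whose median gene SD (0.287 and 0.172) was below that of the other lines, and they share 286 and 295 genes with the 306. Array weights gave 7462 calls (4177 and 3285, 56% higher against 32.4%), 12654 for try against 5 lines and 242 for myb23. The weight estimation stopped before it converged and gave try replicate 3 a weight of 54.9, so these counts are not comparable. Leaving out 1 array gave 161 to 260 calls for try against myb23 (44 to 67 higher, 111 to 193 lower), the 161 without try replicate 3. Without try replicate 2 it was 167, and without myb23 replicates 1, 2 and 3 it was 162, 179 and 170. Try against the 5 lines gave 171 (without try replicate 3) to 454 calls, with 173 without try replicate 2, and myb23 against them 3 to 13, with 8, 3 and 5 without myb23 replicates 1, 2 and 3. Each of these fits has 1 array fewer, and the cause of the changes in count was not tested.

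The differences that changed sign were all of patterning genes that were not called. With each array centred on its median, CPC became 0.017, and with array weights SCM became 0.285. Leaving out 1 array moved GL1 between -0.13 and 0.0086, MYC1 between -0.398 and 0.068, CPC between -0.0500 and 0.0372, ETC2 between -0.422 and 0.0202, SCM between -0.395 and 0.338, JKD between -0.37 and 0.00991 and PLDZETA1 between -0.0135 and 0.176. The list medians moved in 2 cases, ground tissue to -0.04 without myb23 replicate 1 and jasmonate and touch to 0.09 without try replicate 3. The cause was not tested.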

Other observations

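Some gene families with called members were looked up after the calls were seen, and are given as values only. Of 185 measured cytochrome P450 genes with a symbol, which oxidise hormones and many plant compounds, 4 were higher and 4 lower in try (4.32% called, against 1.43% of all genes), with a median difference of 0.08. CYP709B2 stood at 10.86, 10.46 and 10.53 in try and at 8.83, 9.22 and 8.73 in myb23, and CYP82F1 at 7.87, 7.11 and 7.72 against 9.99, 9.31 and 9.10. Their differences were 1.69 (SE 0.41, adjusted p = 0.0442) and -1.90 (SE 0.37, adjusted p = 0.00863).

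Of 24 expansin genes, whose proteins loosen cell walls, 1 was higher and 2 were lower (12.5% called), with a median of 0.06. EXPB1 stood at 9.01, 8.51 and 8.28 in try and at 11.07, 10.61 and 10.72 in myb23, a difference of -2.20 (SE 0.46, adjusted p = 0.0133). EXPA10 differed by 1.53 (SE 0.32, adjusted p = 0.0148) and EXPA21 by -1.53 (SE 0.30, adjusted p = 0.00815). Of 17 methyl esterase genes, MES1 and MES3 were lower and none was higher (11.8% called). Of 40 SCPL genes, SCPL11 and SCPL13 were lower and none was higher (5% called). These families were looked up because they held calls, so their shares above the 1.43% of all genes are a description.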
